A study of Homo sapiens with 9 samples.

Results

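The collagen genes of a human endothelial cell line, and the enzymes that modify, cross-link and trim their products, were examined after treatment with trimethylamine N-oxide (TMAO), a metabolite that gut microbes and the liver produce from dietary choline. The members were all rows whose symbol names a collagen chain (COL, a number, A, a number), together with 15 named enzymes and helper proteins of collagen assembly. This gave 59 of the 29740 gene symbols listed, 44 of them chains and 15 enzymes. The expression filter left 42 of the 59 members to be tested, 27 chains and all 15 enzymes, among 14740 tested genes.

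The cells were HMEC-1, an immortalised line of dermal microvascular endothelial cells, in which RNA was sequenced. There were 3 groups of 3 libraries: untreated cells (CTRL), cells given 50 µM TMAO for 24 h (TMAO 24H), and cells given 50 µM TMAO for 48 h (TMAO 48H). Treatment was carried out in low-serum medium. Controls of both time-points were pooled by the study, whether as RNA or only as a group of libraries was not stated, so each TMAO group was set against CTRL of mixed time in culture. Longer culture and longer exposure to TMAO cannot be told apart. The methods speak of independent experiments for the data in general, but no label ties a library to a culture, so p-values measure the spread between these libraries. All samples come from this line alone, and the question was how far TMAO moved collagen expression at either time-point. Total estimated counts ran from 29160868 to 30069548 in CTRL, 32179428 to 36927373 in TMAO 24H, and 25205756 to 32563494 in TMAO 48H.

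Collagens are trimers of chains wound into a triple helix. Fibrillar collagens (types I, III, V and their relatives) form the cables of connective tissue, type IV forms the sheet of the basement membrane on which endothelial cells sit, and type VI forms beaded filaments between them. Chains are hydroxylated and folded in the endoplasmic reticulum, trimmed at their ends on or after secretion, and cross-linked outside the cell by lysyl oxidases.

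Some libraries stood apart, and for the collagen members the calls they changed are given with and without them. Calls of single genes outside the members are given with all libraries only. In TMAO 24H replicate 1, 5 genes for ribosomal RNA took up 30.7% of counts, where the remaining libraries had between 0.968% and 6.73%. Without those genes it still held 25580740 counts. TMAO 48H replicate 3 differed in epithelial genes. The summed normalised count of KRT5, KRT14, EPCAM and CDH1, markers of keratinocytes and other epithelia, was 266 there and 1692 to 3047 in the other 8 libraries. These are 4 of the 6 epithelial markers examined, singled out after their values were seen. The other 2, KRT8 and KRT18, did not show this gap, and KRT18 was the most abundant of the list. Among 12329 genes with a mean normalised count of at least 50, 20 lay more than 4-fold below the lowest of the other libraries in TMAO 48H replicate 3, and COL17A1 was the only collagen member among them. In TMAO 24H replicate 1, 26 genes lay more than 4-fold above all others, and no member was among them. A normalised count here is a rounded count divided by the effective library size and multiplied by the mean effective size of 30416647.

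At 24H, no collagen chain and no enzyme was called. A gene was called when its adjusted p was under 0.05 in edgeR's quasi-likelihood test and its change was at least 1.4-fold, a rule that 7 of the 14740 genes met (0.0475%). No member reached an adjusted p under 0.05 either, where 14 genes fell (0.095%) and 0 rose. At an unadjusted p under 0.05, 2 of the 27 chains and 2 of the 15 enzymes were lower and 0 were higher, against 4.47% of all tested genes in the lower direction and 2.77% in the higher. DESeq2 called 0 members. The median log2 fold change was -0.05 for the chains, -0.05 for the enzymes and -0.0004 for all tested genes. The chain with the lowest value was COL9A3 at -0.38 (SE 0.12, adjusted p = 0.493).

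At 48H, 5 of the 27 tested chains were called lower than CTRL and 0 higher. They were COL1A1, COL1A2 and COL5A1 of the fibrillar class, COL6A3 of type VI, and COL14A1, a fibril-associated chain. Of all tested genes, 135 were called lower (0.916%) and 130 higher (0.882%). At an adjusted p under 0.05 with no fold threshold, 9 chains were lower, against 5.29% of all tested genes, and 2 were higher, against 5.14%. The median log2 fold change of the 27 chains was -0.21 and that of all tested genes 0.004. No enzyme was called, but 7 of the 15 were lower at an adjusted p under 0.05.

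**Figure D1:**
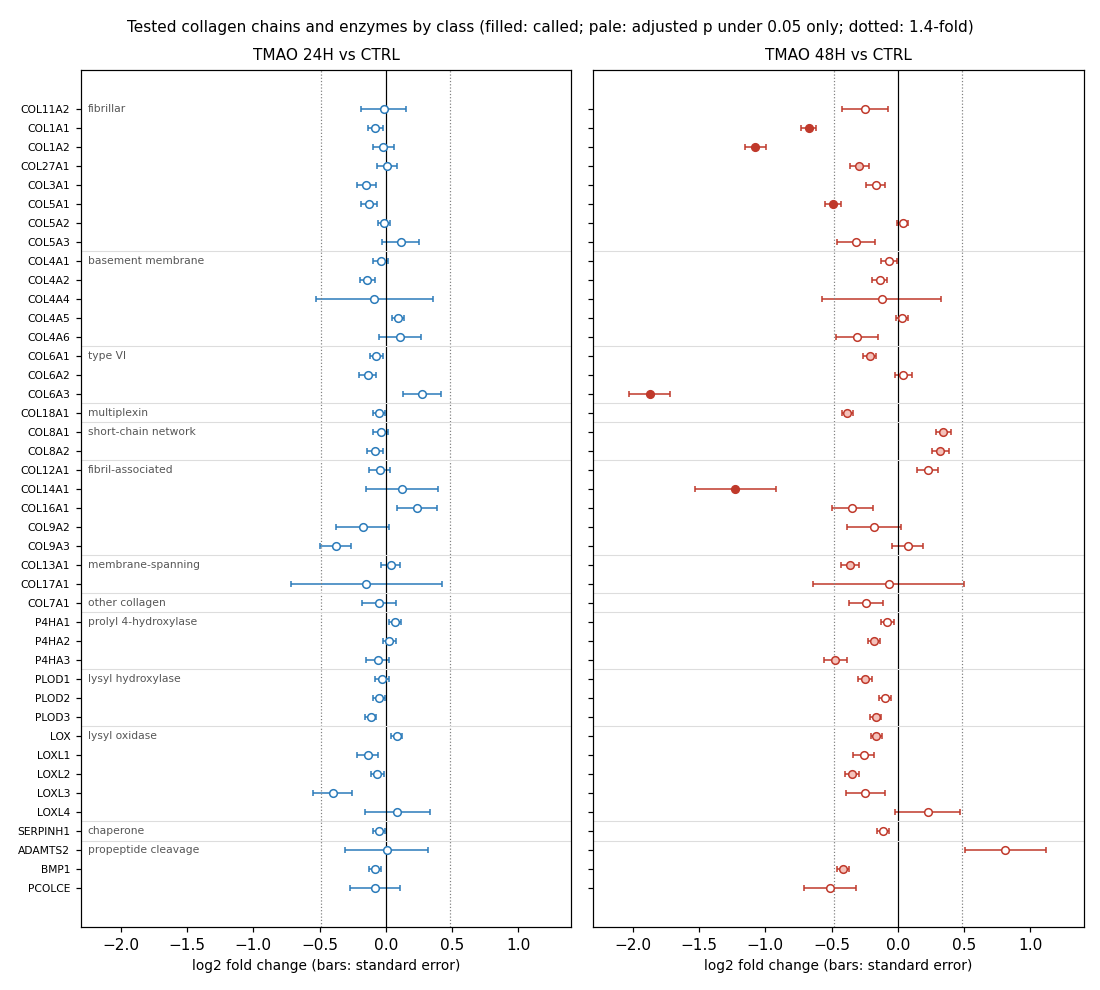
Log2 fold change against CTRL (horizontal axis, bars are standard errors) of the 42 tested members, grouped by class, at 24H on the left and 48H on the right. Filled points were called, pale points had an adjusted p under 0.05 but less than a 1.4-fold change, and dotted lines mark 1.4-fold. At 48H the 5 filled points lie to the left and the only pale points to the right are COL8A1 and COL8A2.

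Type I collagen, the main component of connective tissue fibrils, is made of COL1A1 and COL1A2 chains. COL1A1 had 21762, 21107 and 19009 normalised counts in the CTRL libraries, 19315, 18891 and 20365 in TMAO 24H, and 12293, 12936 and 13556 in TMAO 48H. Every 48H library lay below every other library. The log2 fold change against CTRL was -0.67 at 48H (SE 0.06, edgeR adjusted p = 2.15e-05) and -0.08 at 24H (SE 0.06, adjusted p = 0.839). COL1A2 had 9646, 9420 and 7882 normalised counts in CTRL, 9311, 8250 and 9070 in TMAO 24H, and 4259, 3916 and 4604 in TMAO 48H. Again the 48H libraries lay wholly below the others, and the log2 fold change was -1.08 (SE 0.08, adjusted p = 5.95e-06), a 2.11-fold fall. Both calls were also made without TMAO 48H replicate 3, at -0.71 for COL1A1 and -1.14 for COL1A2.

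Type V collagen is incorporated into type I fibrils and limits their diameter. Its chain COL5A1 had 19898, 19607 and 17088 normalised counts in CTRL, 17548, 16550 and 17813 in TMAO 24H, and 12775, 14007 and 13569 in TMAO 48H. The groups at 48H and in CTRL did not overlap. Its fall was just past 1.4-fold (log2 fold change -0.49, SE 0.06, adjusted p = 0.000339), at the very edge of the fold threshold. Left out in turn, CTRL replicate 1, CTRL replicate 2 or TMAO 48H replicate 1 each took it below that threshold, with adjusted p-values of at most 0.00312. With GC content and length offsets it was at -0.43, also below the threshold. Its partner COL5A2 had 15773 ± 781 normalised counts in CTRL and 16161 ± 213 in TMAO 48H (SD, n = 3), a log2 fold change of 0.04 with a 95% interval from -0.06 to 0.13. The interval for COL5A2 lay above the change seen in COL5A1.

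Of the other 4 fibrillar chains tested, COL27A1 fell (log2 fold change -0.29, SE 0.07, adjusted p = 0.0226). COL3A1, the type III chain, was at -0.17 (95% interval -0.32 to -0.02, adjusted p = 0.142), and COL5A3 and COL11A2, minor fibril chains, did not pass the test either. In all, 7 of the 8 fibrillar chains had a negative log2 fold change at 48H, where 7225 of the 14740 tested genes did. At an adjusted p under 0.05, 4 of the 8 were lower, against 5.29% of all tested genes, and the class median was -0.30. The summed normalised count of the class was 66390 ± 4766 in CTRL, 63404 ± 1976 in TMAO 24H and 48629 ± 1445 in TMAO 48H (SD, n = 3). In bulk RNA, fewer cells of a type and less RNA per cell cannot be told apart.

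**Figure D2:**
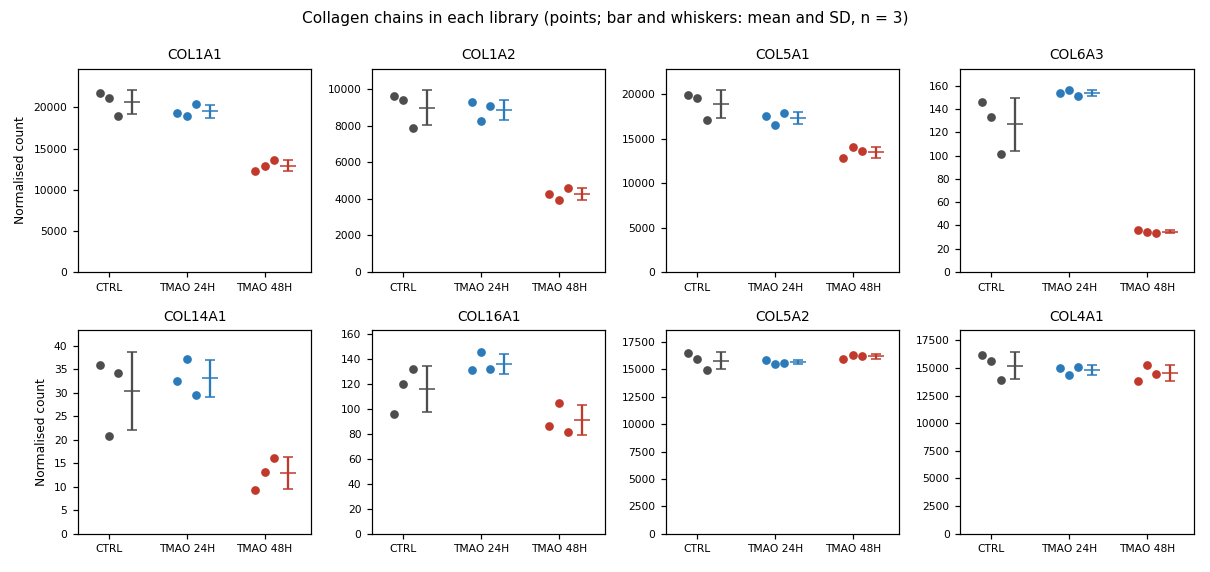
Normalised counts (vertical axis, from 0) of 8 collagen chains in the 9 libraries, one point a library, with the group mean and SD beside the points (n = 3). COL1A1, COL1A2, COL5A1, COL6A3 and COL14A1 are lowest in the 3 TMAO 48H libraries, whereas for COL5A2 and COL4A1 they overlap those of CTRL.

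Type VI collagen is assembled from COL6A1, COL6A2 and a longer chain, most often COL6A3. COL6A3 had 146, 133 and 102 normalised counts in CTRL, 153, 156 and 151 in TMAO 24H, and 36.1, 34.3 and 33.4 in TMAO 48H. The 48H libraries lay far below the rest, and those at 24H lay above CTRL. The fall at 48H was the largest among the 42 tested members, 3.66-fold (log2 fold change -1.87, SE 0.16, adjusted p = 2.02e-05), and it was -1.85 without TMAO 48H replicate 3. The value at 24H was 0.27 (SE 0.14, adjusted p = 0.735). COL6A1, the most abundant chain of the type, fell by 0.21 on the log2 scale (SE 0.05, adjusted p = 0.0149), and COL6A2 was at 0.04 (95% interval -0.10 to 0.18). COL6A1 and COL6A2 had far higher counts than COL6A3, so the summed count of the type was 3747 ± 169 in CTRL and 3240 ± 158 in TMAO 48H (SD, n = 3).

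The promoter windows that RefSeq gives for GRCh38.p14 (250 bases before to 50 after each start) held 44 of the 59 members. Stretches of COL6A3, which fell most, and of COL4A1 and COL4A2, which did not pass the test at 48H, are shown as examples. They were chosen by these results, and whether motifs or GC content go with the change was not tested. COL4A1 and COL4A2 lie head to head on chromosome 13, with starts 127 bases apart on opposite strands, so the stretch between the starts (chr13:110307158-110307283, plus strand) lies upstream of both. For COL6A3 the 250 bases before the start are given (chr2:237414165-237414414, minus strand, written 5′ to 3′). Capitals mark the motifs CCAAT and GGGCGG, searched with TATAAA on both strands, which do not overlap one another here.
COL4A1-COL4A2 between starts: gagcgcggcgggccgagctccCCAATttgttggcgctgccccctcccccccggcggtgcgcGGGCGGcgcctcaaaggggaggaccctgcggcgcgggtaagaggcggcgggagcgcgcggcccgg
COL6A3 upstream: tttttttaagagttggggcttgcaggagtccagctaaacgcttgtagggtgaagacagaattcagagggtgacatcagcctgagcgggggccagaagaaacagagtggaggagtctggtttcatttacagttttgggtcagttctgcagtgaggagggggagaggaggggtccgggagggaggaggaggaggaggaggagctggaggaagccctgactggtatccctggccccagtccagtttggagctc
The stretch of 126 bases between the COL4A1 and COL4A2 starts had a GC content of 80.2% and held CCAAT and GGGCGG in 1 copy each. The COL6A3 stretch had a GC content of 56% and held none of the 3 letter strings. Of 27305 promoter windows, 35.7% held CCAAT, 44.6% GGGCGG and 12% TATAAA. Among the 44 members with a window, 13, 25 and 6 held them. A match describes the letters only.

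Basement membrane chains did not pass the test. COL4A2, the most abundant of them, had 26033 ± 1807 normalised counts in CTRL, 23611 ± 602 in TMAO 24H and 23650 ± 1066 in TMAO 48H (SD, n = 3). On the log2 scale it was at -0.14 relative to CTRL at both time-points (SE 0.06, adjusted p = 0.646 at 24H and 0.141 at 48H). COL4A1 was at -0.07 at 48H, with a 95% interval from -0.19 to 0.06. COL4A5 was at 0.03 (95% interval -0.07 to 0.13), and its head-to-head neighbour COL4A6 at -0.31 (95% interval -0.66 to 0.04). Of the 5 tested, edgeR and DESeq2 called 0, and an unadjusted p under 0.05 was reached by COL4A2 alone. The class median was -0.12 with all libraries, -0.07 without TMAO 48H replicate 3 and -0.06 with GC content and length offsets. The summed count was 44618 ± 3030 in CTRL and 41558 ± 1893 in TMAO 48H (SD, n = 3).

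**Figure D3:**
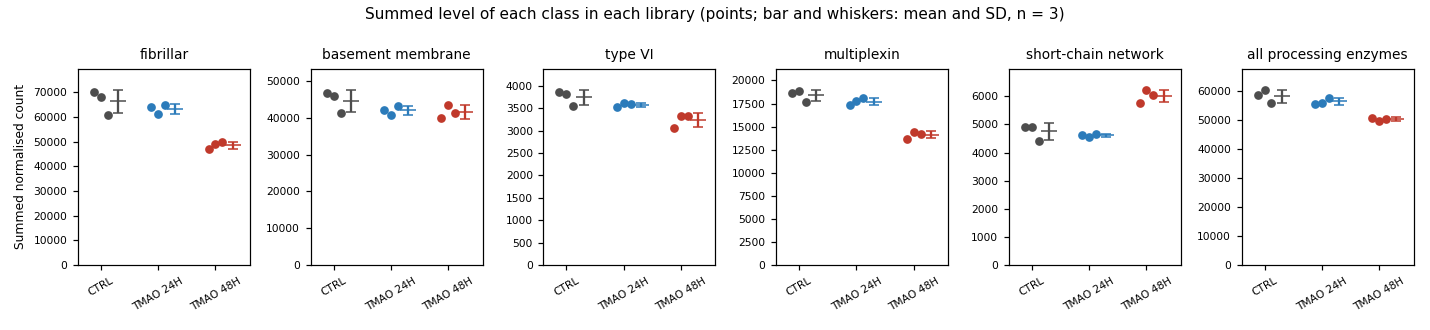
Summed normalised count (vertical axis, from 0) of 5 collagen classes and of the processing enzymes in the 9 libraries, one point a library, with group mean and SD (n = 3). The fibrillar sum lies lower in every TMAO 48H library than in any other library, the short-chain network sum lies higher, and the basement membrane sums overlap.

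COL18A1, a multiplexin of basement membranes whose cleaved end is endostatin, had 18373 ± 630 normalised counts in CTRL, 17710 ± 380 in TMAO 24H and 14103 ± 387 in TMAO 48H (SD, n = 3). It fell by 0.38 on the log2 scale at 48H (SE 0.04, adjusted p = 0.000189), short of 1.4-fold. COL8A1 and COL8A2 are the chains of the short-chain network collagen that endothelial cells lay down. They were the only members that rose against CTRL at an adjusted p under 0.05. COL8A1 went from 4116 ± 325 normalised counts in CTRL to 5216 ± 256 in TMAO 48H (log2 fold change 0.34, SE 0.06, adjusted p = 0.00211). COL8A2 went from 632 ± 33.4 to 789 ± 35.5 (log2 fold change 0.32, SE 0.06, adjusted p = 0.0063).

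Among chains that coat fibrils, COL14A1 was called at low counts. It had 36, 20.9 and 34.3 normalised counts in CTRL, 32.5, 37.2 and 29.5 in TMAO 24H, and 9.31, 13.2 and 16.1 in TMAO 48H, and the 48H libraries did not overlap the others. The log2 fold change was -1.23 (SE 0.31, adjusted p = 0.0224). This call rests on few counts: leaving out 1 library at a time removed it in 4 of 6 cases, with adjusted p up to 0.0838. DESeq2 gave it no adjusted p. A fit with the replicate number as a block also lost it (log2 fold change -1.22, adjusted p = 0.0552). COL16A1 had 95.4, 119 and 132 normalised counts in CTRL, 131, 145 and 132 in TMAO 24H, and 86.1, 105 and 81.7 in TMAO 48H. It overlapped CTRL at 48H (log2 fold change -0.34, SE 0.15, adjusted p = 0.172). COL12A1, the most abundant fibril-associated chain, was at 0.22 (SE 0.08, adjusted p = 0.083).

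COL13A1, a membrane-spanning chain of cell adhesion sites, fell by 0.36 on the log2 scale (SE 0.07, adjusted p = 0.00569), from 1094 ± 54.2 normalised counts in CTRL to 851 ± 39.9 in TMAO 48H (SD, n = 3). COL7A1, the anchoring-fibril chain, had 353 ± 42.2 and 299 ± 57 normalised counts in the same groups and did not pass the test (adjusted p = 0.254). COL17A1 is the chain of hemidesmosomes in basal keratinocytes. In TMAO 48H replicate 3 it was low together with KRT5, KRT14, EPCAM and CDH1, but not with KRT8 or KRT18. It had 112, 121 and 179 normalised counts in CTRL, 109, 105 and 158 in TMAO 24H, and 215, 166 and 11.5 in TMAO 48H. Replicate 3 of TMAO 48H was thus far below all others. The log2 fold change at 48H was -0.07 with all libraries (SE 0.57, adjusted p = 0.958) and 0.47 without that library (SE 0.22, adjusted p = 0.198). The part of epithelial RNA in these values was not tested.

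**Figure D4:**
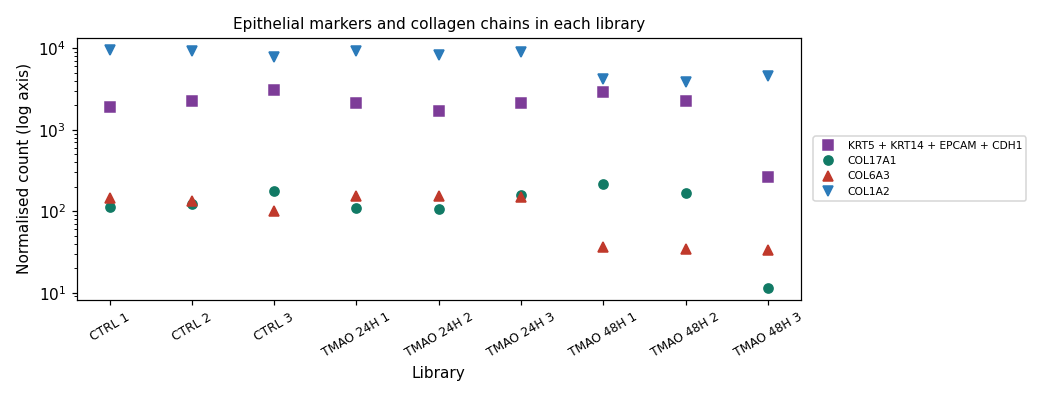
Normalised counts (vertical axis, logarithmic) of COL17A1, COL6A3 and COL1A2 and of the sum of 4 epithelial markers in each of the 9 libraries (horizontal axis). COL17A1 and the marker sum are at 11.5 and 266 in TMAO 48H replicate 3, while COL6A3 and COL1A2 are low in all 3 TMAO 48H libraries.

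The 17 chains that did not pass the filter had at most 16 counts in any library. They were COL2A1, COL11A1, COL24A1, COL4A3, COL6A5, COL6A6, COL15A1, COL10A1, COL9A1, COL19A1, COL20A1, COL21A1, COL22A1, COL23A1, COL25A1, COL26A1 and COL28A1. COL20A1 had no counts in any library. These 17 chains were not tested for differences.

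The enzymes lay mostly lower at 48H, and those that passed the adjusted p threshold did so by less than 1.4-fold. In 12 of the 15, all 3 TMAO 48H libraries were below all 3 CTRL libraries, against 13% of all tested genes, and for the chains this held for 9 of 27. The median log2 fold change of the enzymes was -0.18. Calls by edgeR and by DESeq2 numbered 0, while an unadjusted p under 0.05 was reached by 10 enzymes in the lower direction and 1 in the higher, against 12.6% and 13.2% of all tested genes.

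Prolyl 4-hydroxylases make the hydroxyproline that stabilises the helix. P4HA2, the most abundant of the 3 subunits, had 2761 ± 155 normalised counts in CTRL, 2816 ± 81.1 in TMAO 24H and 2433 ± 3.01 in TMAO 48H (SD, n = 3), a log2 fold change of -0.18 (SE 0.05, adjusted p = 0.0227). P4HA3 fell more, by 0.47 on the log2 scale (SE 0.09, adjusted p = 0.00448), and was at -0.53 and past 1.4-fold without TMAO 48H replicate 3. Lysyl hydroxylases prepare lysines for sugar addition and cross-links. PLOD1 fell by 0.25 (SE 0.05, adjusted p = 0.00954) and PLOD3 by 0.17 (SE 0.04, adjusted p = 0.0223), and PLOD2, the most abundant, was at -0.10 with 10323 ± 237 normalised counts in CTRL and 9663 ± 538 in TMAO 48H (adjusted p = 0.195). SERPINH1, the collagen chaperone HSP47, had 11518 ± 424 and 10642 ± 415 normalised counts in these groups (log2 fold change -0.11, 95% interval -0.21 to -0.02, adjusted p = 0.121).

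Lysyl oxidases start the cross-links between secreted chains. LOXL2, the most abundant by count, had 12838 ± 928 normalised counts in CTRL, 12280 ± 242 in TMAO 24H and 10096 ± 23.8 in TMAO 48H (SD, n = 3), and fell by 0.35 on the log2 scale (SE 0.05, adjusted p = 0.000961). LOX fell by 0.16 (SE 0.04, adjusted p = 0.0277), while LOXL1, LOXL3 and LOXL4 did not pass the test. LOXL1 was at -0.26 with an adjusted p of 0.0605, and at -0.26 with 0.0466 in the fit without TMAO 24H replicate 1. Without TMAO 48H replicate 3 it was at -0.20 with an adjusted p of 0.153. BMP1, the protease that removes the C-terminal propeptide of fibrillar chains, had 4570 ± 78.5, 4325 ± 88.4 and 3432 ± 207 normalised counts in CTRL, TMAO 24H and TMAO 48H, and fell by 0.41 (SE 0.05, adjusted p = 0.000132). Its enhancer PCOLCE was at -0.51 (SE 0.19, adjusted p = 0.111), with 69.8, 56.4 and 100 normalised counts in the TMAO 48H libraries and 107 ± 6.33 in CTRL. Without TMAO 48H replicate 3 it was at -0.77 (SE 0.18, adjusted p = 0.0157) and was called. ADAMTS2, which removes the N-terminal propeptide, was at 0.81 (SE 0.31, adjusted p = 0.11). This value rests on few counts, at most 52 in a library. Its normalised counts were 26.4 ± 9.53 in CTRL and 46.5 ± 6.12 in TMAO 48H.

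Ratios between partner chains within a library do not depend on library scaling. The COL1A1 to COL1A2 ratio of estimated counts was 2.26, 2.24 and 2.41 in CTRL, 2.07, 2.29 and 2.25 in TMAO 24H, and 2.89, 3.30 and 2.94 in TMAO 48H. The COL5A1 to COL5A2 ratio was 1.21, 1.23 and 1.14 in CTRL, 1.11, 1.07 and 1.14 in TMAO 24H, and 0.802, 0.858 and 0.836 in TMAO 48H. In both pairs the 48H libraries did not overlap the others, the first ratio being higher and the second lower. The COL6A1 to COL6A2 ratio was 6.08 ± 0.248 in CTRL and 5.09 ± 0.271 in TMAO 48H (SD, n = 3), also without overlap. For COL4A1 to COL4A2 the ratio was 0.584 ± 0.00801 in CTRL, 0.627 ± 0.00714 in TMAO 24H and 0.613 ± 0.00849 in TMAO 48H, and for COL8A1 to COL8A2 it was 6.54 ± 0.835 and 6.62 ± 0.587 in CTRL and TMAO 48H. In two-sided exact permutation tests, the first 4 pairs reached p = 0.1 at 48H, the smallest that 3 against 3 allows, and COL8A1 to COL8A2 had p = 0.9. At 24H against CTRL, COL5A1 to COL5A2 and COL4A1 to COL4A2 also reached an exact p = 0.1, the first lower and the second higher than CTRL. Adjusted over 15 such tests, the lowest was 0.15.

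**Figure D5:**
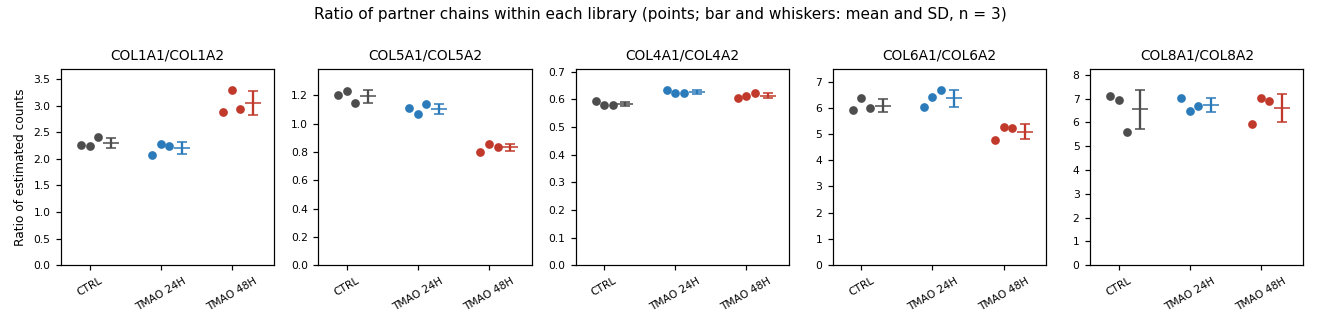
Ratio of the estimated counts of partner chains (vertical axis, from 0) in the 9 libraries, one point a library, with group mean and SD (n = 3). In TMAO 48H the COL1A1 to COL1A2 ratio lies above the other groups, at 2.89 to 3.30, and the COL5A1 to COL5A2 ratio below them, at 0.802 to 0.858.

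Set directly against TMAO 24H, 5 of the 27 chains were called lower at 48H and 0 higher, against 0.848% and 0.862% of all tested genes. COL6A3 fell by 2.15 on the log2 scale, COL14A1 by 1.35, COL1A2 by 1.06, COL1A1 by 0.59 and COL16A1 by 0.58. The last had an adjusted p of 0.0343, and 5 of the 6 fits that left out 1 library lost it, among them the fits without TMAO 24H replicate 1 (-0.60, adjusted p = 0.0704) and without TMAO 48H replicate 3 (-0.51, adjusted p = 0.0888). COL14A1 was no longer called without TMAO 24H replicate 2 (-1.25, adjusted p = 0.0657) or without TMAO 48H replicate 2 (-1.37, adjusted p = 0.0608). DESeq2 gave COL14A1 no adjusted p here either. At an adjusted p under 0.05, 9 chains were lower and 3 higher, against 3.77% of tested genes in the lower direction and 3.77% in the higher. The 3 were COL8A1 (log2 difference 0.38), COL8A2 (0.40) and COL9A3, a fibril-associated chain (0.45, adjusted p = 0.0321). COL9A3 lost this threshold without TMAO 24H replicate 1 (0.45, adjusted p = 0.0824) and without TMAO 48H replicate 3 (0.46, adjusted p = 0.0555), which left 2 higher. Among the 9, COL27A1 lost it without TMAO 24H replicate 1 (-0.30, adjusted p = 0.0592 in place of 0.0234). Of the enzymes, 6 were lower and 0 higher. PLOD1 was among them (-0.22, adjusted p = 0.0212), but not without TMAO 24H replicate 1 (-0.23, adjusted p = 0.0505), and without TMAO 48H replicate 3 PCOLCE was called lower here as well (-0.69, adjusted p = 0.0331). Both 48H comparisons share the TMAO 48H libraries.

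Other genes of collagen biology were taken from 3 lists. Of 27 genes for folding, modification and secretion, 22 were tested. At 48H against CTRL 7 of them were lower at an adjusted p under 0.05 and 0 higher, against 5.29% and 5.14% of all tested genes, with FKBP7, a prolyl isomerase, and ADAMTS14, an N-propeptidase, called lower. FKBP7 was at -0.52 (SE 0.11, adjusted p = 0.00984) and ADAMTS14 at -0.84 (SE 0.19, adjusted p = 0.0139). COLGALT1, which adds galactose to hydroxylysine, fell by 0.36 and LEPRE1, the prolyl 3-hydroxylase now named P3H1, by 0.38, short of the fold threshold. HSPA5, the most abundant gene of the list and a general chaperone, was at 0.04 (adjusted p = 0.697). Against TMAO 24H, ADAMTS14 was again called lower and TLL1, a relative of BMP1, higher, the latter with at most 21 counts in a library.

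Of 11 receptors and uptake genes, 9 were tested. At 48H 2 were lower and 1 higher at an adjusted p under 0.05, beside the same shares of all tested genes. ITGA11, the collagen-binding integrin subunit alpha 11, was called lower in both 48H comparisons. It had 1654 ± 263 normalised counts in CTRL and 1053 ± 105 in TMAO 48H (log2 fold change -0.65, SE 0.10, adjusted p = 0.00164). ITGB1, its partner and the most abundant of the list, was at 0.02 (adjusted p = 0.841). Of 16 fibril-binding matrix proteins, 11 were tested. At the same threshold 5 were lower (5.29% of all tested genes) and 2 higher (5.14%). FN1, fibronectin, had 91692 ± 12584 normalised counts in CTRL and 60429 ± 5946 in TMAO 48H (log2 fold change -0.60, SE 0.10, adjusted p = 0.00223). NID2, which links laminin to type IV collagen, fell by 1.03 (SE 0.07, adjusted p = 4.36e-06), although the type IV chains themselves did not pass the test. The medians of the 3 lists were -0.06, 0.02 and -0.17.

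Cell type markers were examined beside these values. All 13 endothelial markers were tested, with CDH5 the most abundant, and their summed normalised count was 99413 ± 5720 in CTRL, 95561 ± 2927 in TMAO 24H and 84465 ± 3923 in TMAO 48H (SD, n = 3). At 48H 8 were lower at an adjusted p under 0.05 (5.29% of all tested genes were), 0 were called against CTRL by edgeR, and 9 had an unadjusted p under 0.05, all in the lower direction (12.6% of all tested genes). Against TMAO 24H, VWF, von Willebrand factor, was called higher (log2 difference 0.51, adjusted p = 0.00112). Relative to CTRL, VWF was at -0.42 at 24H (adjusted p = 0.082) and at 0.09 at 48H (adjusted p = 0.5). Of 13 fibroblast and mural cell markers, 10 were tested, and at 48H 1 was lower and 3 were higher at an adjusted p under 0.05 (5.29% and 5.14% of all tested genes). DCN and LUM had at most 2 counts in any library. PDGFRB and CSPG4 of the same list had 1461 ± 79.9 and 1703 ± 86.8 normalised counts in CTRL (SD, n = 3). The sum, in which TAGLN was the most abundant, was 6498 ± 204 in CTRL, 6194 ± 47.2 in TMAO 24H and 7225 ± 262 in TMAO 48H. ACTA2, smooth muscle actin, was called higher (log2 fold change 0.74, SE 0.12, adjusted p = 0.00194) and FAP, a membrane protease of activated fibroblasts, lower (log2 fold change -0.72, SE 0.14, adjusted p = 0.00556). TAGLN, a smooth muscle actin-binding protein, rose by 0.33 on the log2 scale (adjusted p = 0.00428) and THY1, a surface glycoprotein, by 0.47 (adjusted p = 0.00147), both short of 1.4-fold. Of 6 leukocyte markers 2 were tested, and CD68 made up 93.9% of their sum, which was 641 ± 42.9 in CTRL and 698 ± 20.5 in TMAO 48H. The 6 epithelial markers summed to 24164 ± 1116 in CTRL, 22835 ± 774 in TMAO 24H and 20334 ± 1238 in TMAO 48H, of which KRT18 made up 83.2%. The part of these shifts in the collagen results was not tested.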

How the data were processed

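RNA of 9 HMEC-1 libraries was sequenced as paired-end reads, and per the labels Trim Galore was among the tools the authors used. The authors ran the nf-core RNA-seq pipeline and deposited the expected counts (estimated counts that need not be whole) per gene symbol, not normalised. The quantifier, genome build and strand setting are not given in the sources used here. Counts were rounded to whole numbers. All 9 libraries were fitted together in R 4.3.3 with edgeR 4.0.16 (expression filter, TMM scaling, quasi-likelihood test, Benjamini-Hochberg adjustment over 14740 genes). A gene was called at an adjusted p under 0.05 and at least a 1.4-fold change. The standard error is the log2 fold change divided by the square root of F, and the biological coefficient of variation was 0.0744. DESeq2 1.42.0 served as an alternative. The scripts were tested on simulated data. The members, classes and gene lists were chosen with earlier results of these data known. Members called in any comparison are given in every library, classes without one by their most abundant member. Lengths came from the longest coding transcript in GENCODE, and sequences from RefSeq. Libraries of a group differed by more than sampling noise (chi-square per degree of freedom 3.50 to 19.2 over 12325 genes). This does not show that they came from independent cultures, and each library was counted as 1 replicate. Alternatives covered scaling, filters, GC content and length, the replicate block and leaving out each library.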

Additional observations from a re-analysis of the deposited data

Results flagged for a closer look

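In 5 collagen chains the level at 48H differed from that at 24H in the direct test of TMAO 48H against TMAO 24H (edgeR quasi-likelihood test, 3 libraries a group). COL6A3 differed by -2.15 on the log2 scale (SE 0.16, adjusted p = 3.24e-06), COL14A1 by -1.35 (SE 0.30, adjusted p = 0.0153) and COL1A2 by -1.06 (SE 0.08, adjusted p = 3.24e-06). COL1A1 differed by -0.59 (SE 0.06, adjusted p = 3.05e-05) and COL16A1 by -0.58 (SE 0.15, adjusted p = 0.0343). When 1 library was left out, COL16A1 lost its call in 5 of 6 fits and COL14A1 in 2 of 6. Of all tested genes, 0.848% were called lower in this comparison.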

How the results depend on the processing

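Counts of called chains at 48H against CTRL (5) became 11 with no fold threshold and 2 with edgeR's test against a 1.4-fold change (COL1A2 and COL6A3), and ranged from 3 to 5 when 1 library was left out. All genes called there (265) became 1537, 23 and 187 to 339. For enzymes (0) they became 7 with no fold threshold and ranged from 0 to 2 when 1 library was left out. Without TMAO 24H replicate 1 and TMAO 48H replicate 3 together, they were 2 (P4HA3 and PCOLCE), and all genes called were 336. That setting was chosen after seeing the data. Against TMAO 24H, called chains (5) became 12 with no fold threshold and 2 with the 1.4-fold test, and ranged from 3 to 6 when 1 library was left out, where all genes called (252) became 1110, 50 and 193 to 257. Called enzymes (0) became 6 with no fold threshold and ranged from 0 to 1. At 24H against CTRL all settings run gave 0. COL1A2 and COL6A3 were called in both 48H comparisons under all 19 alternatives, and no log2 fold change of a called member reversed. With GC content and length offsets COL5A1 was at -0.43 and no longer past the fold threshold, the fibrillar median at 48H was -0.22, the basement membrane median -0.06 and the type VI median -0.12. Deviations of same-numbered libraries had r between -0.12 and 0.0908 in 9 pairs. In the 18 pairs with different numbers r lay between -0.0996 and 0.159. With 3 libraries a group these values cannot settle whether the numbers pair samples, and no label says so. With the replicate block 4 chains were called at 48H against CTRL, without COL14A1, and 5 against TMAO 24H. All genes called under it were 214 and 213. Members with few counts, such as COL14A1, limit what a lost call shows.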

Other observations

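Per kilobase of transcript, the order of the chains in CTRL was led by COL4A2 with 4009 ± 278 normalised counts per kilobase (SD, n = 3). COL1A1 followed with 3066 ± 214 and COL18A1 with 2790 ± 95.6, and the libraries of these 2 overlapped. COL4A1, COL5A2 and COL5A1 came next, with 2299 ± 183, 2228 ± 110 and 2227 ± 182, and neighbours among them overlapped. COL1A2 stood at 1660 ± 177. In TMAO 48H COL4A2 still led, with 3642 ± 164 normalised counts per kilobase, and COL1A1, with 1922 ± 93.9, came after COL5A2, COL4A1 and COL18A1 as well.

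As a share of the summed normalised count of all 44 chains, the fibrillar class made up 47.2% ± 0.446 in CTRL, 47.4% ± 0.464 in TMAO 24H and 42% ± 0.76 in TMAO 48H (SD, n = 3). The basement membrane class made up 31.8% ± 0.165, 31.4% ± 0.0737 and 35.8% ± 0.67, and the short-chain network 3.38% ± 0.0289, 3.45% ± 0.0409 and 5.18% ± 0.0339. For each of these 3 classes the 48H libraries did not overlap those of CTRL. Shares must sum to the whole, so a fall in 1 class raises the others.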
